A study of Mus musculus with 16 samples.

Results

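Interleukins, colony stimulating factors and their receptors are the messengers, and the sensors of those messengers, with which immune cells set each other's growth, survival and activation. The genes described here are those of a NanoString myeloid panel whose symbol is Il followed by a digit or starts with Csf, leaving out Il1a, Il1b, Il33, the symbols that start with Il1r or Il18, Il5ra and Csf3r. The rule takes 29 of the 734 genes in the table and leaves 12 other genes of those names out. Of the 29, 18 encode ligands, 10 encode receptor chains and 1, Il4i1, encodes an enzyme.

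The panel counts mRNA molecules with colour-coded probes and without amplification, here in CD11b+ cells selected from the spleens of 16 wild type C57BL/6 mice in 4 groups of 4. Naive mice were left untreated. The other groups were injected with 20000000 BALB/c spleen cells depleted of T cells (allogeneic cells, from a strain mismatched for transplantation antigens), given alone, with CTLA4-Ig, or with both CTLA4-Ig and erythropoietin (EPO). CTLA4-Ig (abatacept, 150 µg once on day 2) is a fusion protein that blocks CD28 costimulation of T cells, EPO (epoetin alfa, 5000 U/kg daily) is the hormone of red cell production, and spleens were taken on day 7. In a protocol field of the labels, the letter codes for untreated mice and for allogeneic cells without further treatment are swapped relative to the titles and treatment fields, so the naive comparison, and the identity of the group that CTLA4-Ig is compared with, rest on titles and treatments. Strain and treatment are the same within a group, and the ages of the mice are not given in the sources used here.

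The values are log2 levels normalized by the authors, and each is the log2 of a whole count times 1 factor for its mouse, so the counts could be recovered. Total recovered counts ranged from 562760 to 843830 in naive mice, from 700091 to 843363 after allogeneic cells alone, from 690326 to 912328 with CTLA4-Ig and from 655838 to 827739 with CTLA4-Ig/EPO. The factor lay between 1.27 and 1.85 in naive mice and between 0.560 and 0.791 in all others, so that 1 count has a higher log2 level in a naive mouse than in any other. Naive mouse 1 stood farthest from its group, with 59.8% of its counts in its 10 highest genes against 42.1% to 46.2% in the other naive mice. What the factor was computed from is not given in the sources used here. A gene was called when the limma p-value, adjusted by Benjamini-Hochberg over all 734 genes, was below 0.05, and a difference is a difference of mean log2 levels with n = 4 mice a group.

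As background, most of these cytokines signal by drawing receptor chains together so that Jak kinases bound to them phosphorylate Stat transcription factors. Families share a chain: interleukin-2, interleukin-4, interleukin-9, interleukin-15 and interleukin-21 use the common gamma chain, interleukin-3, interleukin-5 and GM-CSF use the common beta chain, and interleukin-12, interleukin-23 and interleukin-27 are pairs of subunits, some of them shared. CSF-1 acts instead through a receptor that is itself a tyrosine kinase, and it keeps monocytes and macrophages alive in the spleen and elsewhere.

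Adding EPO to CTLA4-Ig asks what EPO does to the cells beyond costimulation blockade. It moved 10 of the 29 genes, 5 up and 5 down. Of all 734 genes, 22.8% were called higher and 28.3% lower in the same comparison, so the genes described here were not called more often than the panel as a whole. Among ligands, Il15 and Il27 rose and Il12a and Il23a fell. Among receptors, Csf1r, Il3ra and Il6ra rose and Il21r, Il4ra and Il27ra fell. The median difference was -0.09 over the 18 ligands and -0.14 over the 10 receptors, against -0.07 over all genes. Under 4 scalings (the deposited one, aligned sample medians, quantile normalization, and limma-voom on recovered counts) Csf1r, Il15 and Il27 were called higher each time and Il12a, Il21r, Il4ra and Il27ra lower each time. The split of all genes moved from 167 higher and 208 lower on the deposited scale to 126 and 276 with aligned medians and 189 and 151 with limma-voom, and the median of all genes moved to -0.28 with aligned medians. In the same comparison all 5 T cell markers measured fell and all 5 red pulp macrophage markers rose, and their part in these differences was not tested. In 9 of the 29 genes the 4 mice with EPO did not overlap the 4 mice without it, against 48.8% of all genes.

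**Figure D1:**
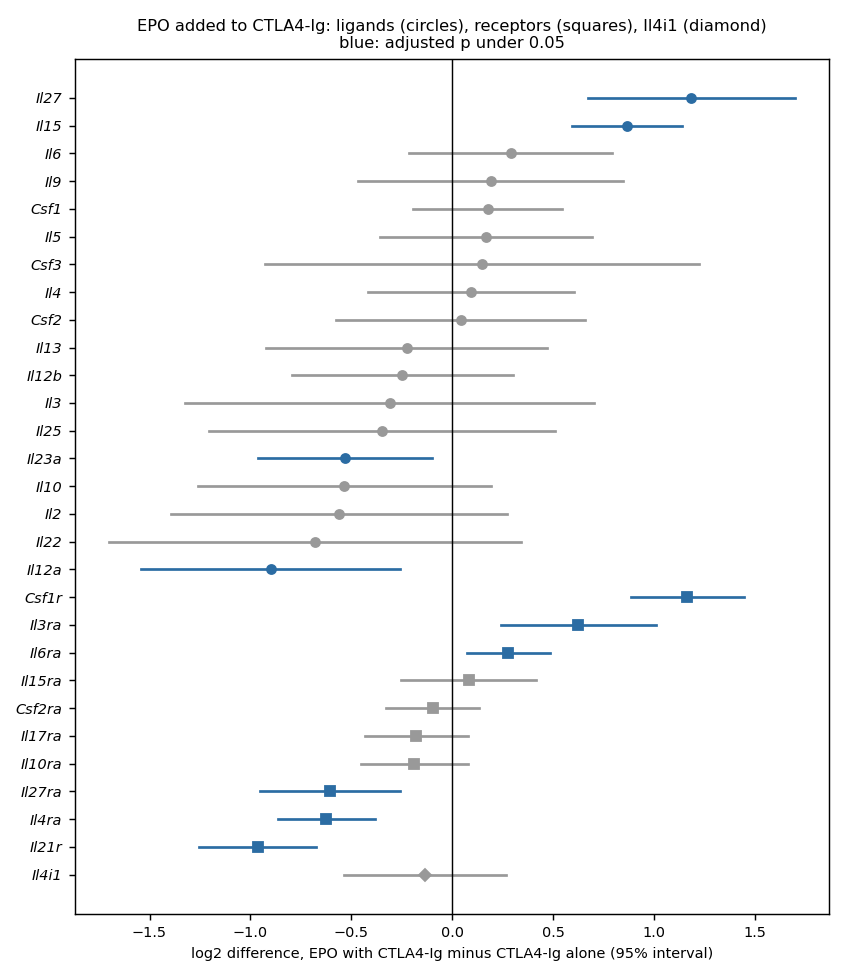
Log2 difference of each of the 29 genes between CTLA4-Ig/EPO and CTLA4-Ig alone, with its 95% interval from limma (n = 4 mice a group). The 10 called genes (blue) reach from -0.96 for Il21r to 1.19 for Il27. Receptors are 3 of the 5 that rose and 3 of the 5 that fell.

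Il15 had log2 levels of 8.45, 7.82, 8.20 and 8.09 in the naive mice, 5.22, 5.46, 5.20 and 5.16 in those given allogeneic cells alone, 5.31, 5.52, 5.56 and 5.35 in those with CTLA4-Ig and 6.33, 6.39, 6.37 and 6.12 in those with CTLA4-Ig/EPO. Interleukin-15 maintains natural killer cells and memory T cells, and myeloid cells present it on its own receptor chain. Naive mice were highest, the mice with EPO came next, and neither overlapped any other group. With EPO the level rose by 0.87 ± 0.13 (SE; limma adjusted p = 4.11e-05), and all 4 mice given EPO lay above all 4 given CTLA4-Ig alone. After quantile normalization the difference was 0.55.

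Il27 had log2 levels of 3.89, 2.92, 3.54 and 3.62 in the naive mice, 1.87, 2.41, 1.92 and 2.79 in those given allogeneic cells alone, 1.48, 1.25, 1.24 and 1.74 in those with CTLA4-Ig and 2.34, 2.78, 2.97 and 2.36 in those with CTLA4-Ig/EPO. Il27 encodes the p28 subunit of interleukin-27, which restrains and shapes T cell responses. These levels stand for few molecules, 3 to 5 counts in each mouse with CTLA4-Ig and 7 to 14 in each with EPO. All EPO levels were higher than any level with CTLA4-Ig alone, and the difference was 1.19 ± 0.24 (limma adjusted p = 0.000753). That rise started from the group with the lowest mean, 1.43, against 2.25 after allogeneic cells alone and 2.61 with CTLA4-Ig/EPO. The EPO range, 2.34 to 2.97, overlapped the ranges after allogeneic cells alone (1.87 to 2.79) and in naive mice (2.92 to 3.89).

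Il12a had log2 levels of 4.59, 4.04, 4.91 and 3.26 in the naive mice, 5.27, 5.49, 4.83 and 5.11 in those given allogeneic cells alone, 5.15, 4.66, 5.19 and 5.20 in those with CTLA4-Ig and 4.49, 4.31, 4.21 and 3.60 in those with CTLA4-Ig/EPO. Il12a encodes p35, the subunit of interleukin-12 that interleukin-23 lacks, and interleukin-12 drives interferon-gamma responses. Every mouse with EPO lay below every mouse with CTLA4-Ig alone, and the difference was -0.90 ± 0.30 (limma adjusted p = 0.0206). The call was lost without CTLA4-Ig mouse 4 (adjusted p = 0.0506) or without CTLA4-Ig/EPO mouse 4 (adjusted p = 0.0722).

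Il23a had log2 levels of 4.80, 4.43, 4.74 and 4.04 in the naive mice, 4.19, 4.30, 3.86 and 3.58 in those given allogeneic cells alone, 3.65, 3.98, 3.70 and 3.67 in those with CTLA4-Ig and 3.53, 3.42, 2.87 and 3.06 in those with CTLA4-Ig/EPO. Il23a encodes p19, which joins the p40 subunit to make interleukin-23. The recovered counts were 18 to 22 with CTLA4-Ig and 13 to 16 with EPO. The difference of -0.53 ± 0.20 (limma adjusted p = 0.0393) passed the threshold on all 8 mice but not in 6 of the 8 fits that left out 1 mouse, all but those without CTLA4-Ig/EPO mouse 1 or 2 (adjusted p from 0.051 to 0.122), nor with limma-voom on recovered counts (adjusted p = 0.196) or with trended and robust moderation (adjusted p = 0.0852).

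**Figure D2:**
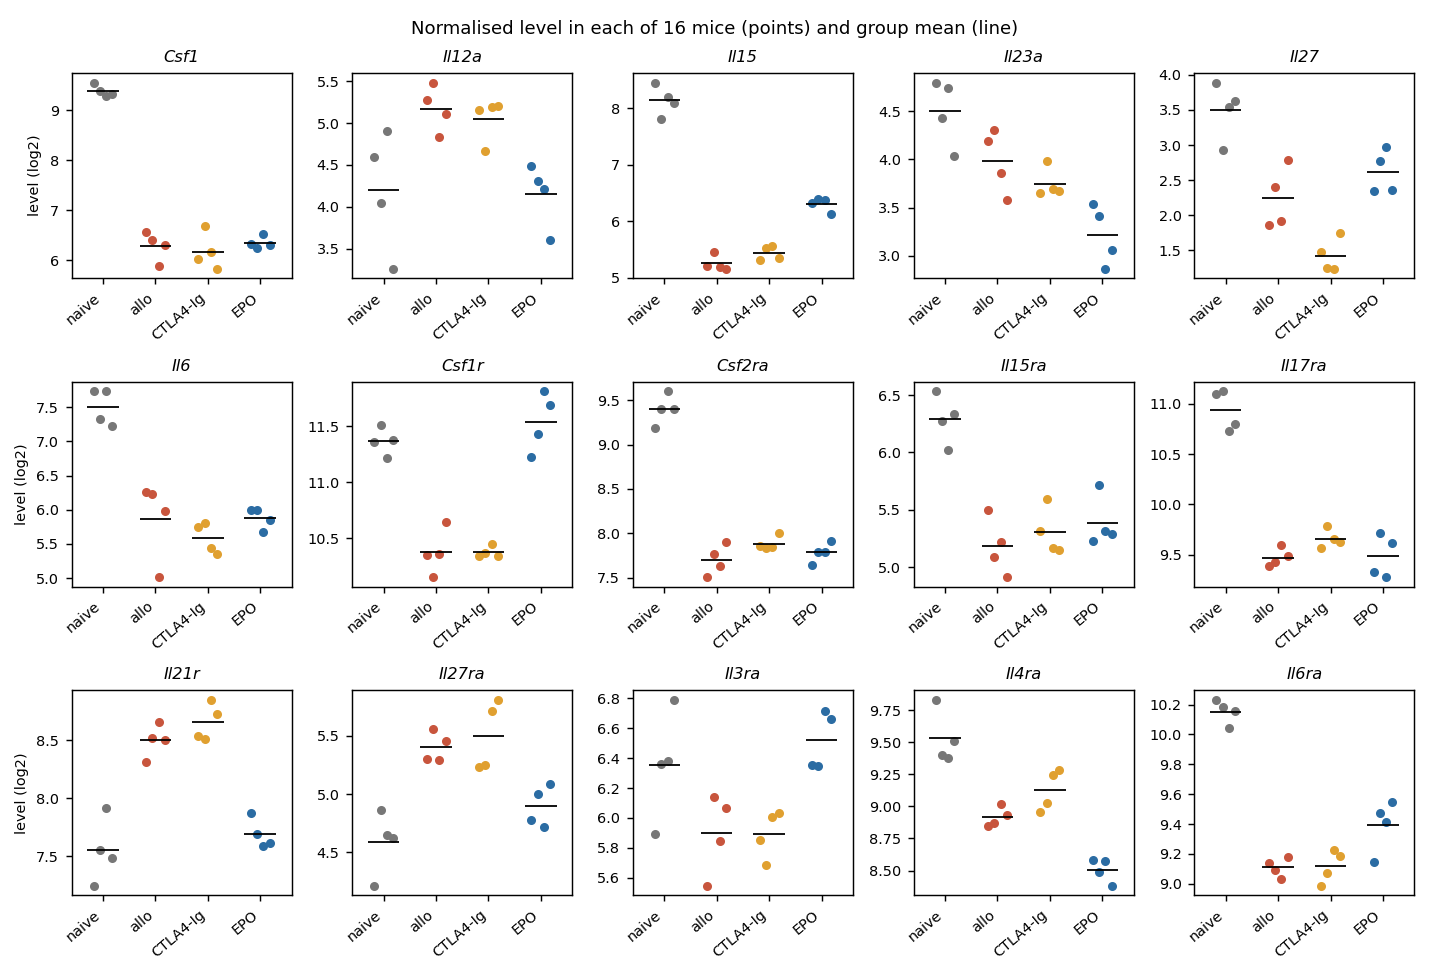
Normalised log2 level in each of the 16 mice (points) and the group mean (line) for the 10 genes called with EPO and the 5 others with the largest F statistic, each on its own axis. Csf1 and Il15 are highest in naive mice, Csf1r and Il15 are higher with EPO than with CTLA4-Ig alone, and Il21r and Il4ra are lower.

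Csf1r had log2 levels of 11.36, 11.51, 11.22 and 11.38 in the naive mice, 10.35, 10.15, 10.35 and 10.64 in those given allogeneic cells alone, 10.34, 10.37, 10.44 and 10.34 in those with CTLA4-Ig and 11.22, 11.43, 11.81 and 11.69 in those with CTLA4-Ig/EPO. Csf1r encodes the receptor for CSF-1 and marks monocytes and macrophages. The 4 mice with EPO lay above all 8 mice given allogeneic cells without it, and they overlapped the naive mice on this scale. In recovered counts they lay above the naive mice, with 3307 to 6415 against 1418 to 2296. EPO raised the level by 1.16 ± 0.13 (limma adjusted p = 3.19e-06).

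Il3ra had log2 levels of 5.89, 6.36, 6.38 and 6.79 in the naive mice, 5.54, 6.14, 5.85 and 6.07 in those given allogeneic cells alone, 5.85, 5.68, 6.01 and 6.03 in those with CTLA4-Ig and 6.35, 6.35, 6.72 and 6.66 in those with CTLA4-Ig/EPO. Il3ra encodes the chain that binds interleukin-3, a growth factor of basophils, mast cells and early progenitors. On the deposited scale mice with and without EPO did not overlap, and naive mice spread across both. In recovered counts the naive mice, at 32 to 81, lay below the mice with EPO, at 107 to 188. The difference was 0.63 ± 0.18 (limma adjusted p = 0.00938), and it missed the threshold when sample medians were aligned (0.42, adjusted p = 0.11) or after quantile normalization (0.33, adjusted p = 0.196).

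Il6ra had log2 levels of 10.23, 10.18, 10.04 and 10.15 in the naive mice, 9.14, 9.09, 9.04 and 9.18 in those given allogeneic cells alone, 8.99, 9.07, 9.22 and 9.19 in those with CTLA4-Ig and 9.15, 9.48, 9.41 and 9.55 in those with CTLA4-Ig/EPO. Il6ra encodes the chain that binds interleukin-6. The lowest mouse with EPO lay among those without it, so the groups overlapped. The difference was the smallest of those called, 0.28 ± 0.10 (limma adjusted p = 0.024), and the call was lost with sample medians aligned (0.08, adjusted p = 0.571), in the fit of only the 2 groups (adjusted p = 0.0781), and in 4 of 8 fits that left out 1 mouse, CTLA4-Ig mouse 1 or 2 or CTLA4-Ig/EPO mouse 2 or 4 (adjusted p from 0.0535 to 0.0805).

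Il21r had log2 levels of 7.25, 7.56, 7.92 and 7.49 in the naive mice, 8.31, 8.52, 8.66 and 8.50 in those given allogeneic cells alone, 8.54, 8.51, 8.85 and 8.72 in those with CTLA4-Ig and 7.87, 7.69, 7.59 and 7.62 in those with CTLA4-Ig/EPO. Il21r encodes the receptor for interleukin-21, a T cell product that acts on B cells, T cells and natural killer cells. The 8 mice given allogeneic cells without EPO all lay above the naive and the EPO mice. On the deposited scale the EPO mice lay within the naive range. In recovered counts the naive mice, at 82 to 149, lay below the EPO mice, at 271 to 343. With EPO the level fell by 0.96 (SE 0.14, limma adjusted p = 2.89e-05).

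Il4ra had log2 levels of 9.83, 9.40, 9.38 and 9.51 in the naive mice, 8.85, 8.87, 9.02 and 8.93 in those given allogeneic cells alone, 8.96, 9.03, 9.24 and 9.29 in those with CTLA4-Ig and 8.58, 8.48, 8.57 and 8.38 in those with CTLA4-Ig/EPO. Il4ra encodes the chain shared by the receptors for interleukin-4 and interleukin-13, through which macrophages take on the alternatively activated state. On the deposited scale the mice with EPO were the lowest of all groups, without overlap. In recovered counts they overlapped the naive mice, with 470 to 680 against 398 to 535. The difference was -0.62 ± 0.11 (limma adjusted p = 0.000277).

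Il27ra had log2 levels of 4.21, 4.86, 4.64 and 4.62 in the naive mice, 5.30, 5.56, 5.29 and 5.46 in those given allogeneic cells alone, 5.23, 5.25, 5.71 and 5.81 in those with CTLA4-Ig and 4.78, 5.0, 4.72 and 5.08 in those with CTLA4-Ig/EPO. Il27ra encodes the specific chain of the interleukin-27 receptor. It was lower in every mouse with EPO than in any mouse with CTLA4-Ig alone, with a difference of -0.61 ± 0.16 (limma adjusted p = 0.00593). In CD11b+ cells taken as a bulk sample, fewer cells of a type and less RNA per cell cannot be told apart.

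Il4ra and Il21r are neighbours on mouse chromosome 7, with 0 other protein-coding genes and 23.8 kb between them, and both fell with EPO. Their promoters are shown beside those of Il3ra and Il6ra, which rose; these are the receptor genes called with EPO that have an entry in the RefSeq promoter table used here (GRCm38.p6, 250 bases before to 50 after the start, read along the gene's strand). The windows are chr7:125552021-125552320 (plus strand) for Il4ra, chr7:125603179-125603478 (plus) for Il21r, chr14:14346245-14346544 (plus) for Il3ra and chr3:89913147-89913446 (minus) for Il6ra. The window of Il3ra lies inside the gene, whose first base is 14345912. That of Il21r spans the first base of its gene, 125603252. For these genes the start used therefore lies further in than the gene's first base. Capitals mark motif matches on either strand.
Il4ra: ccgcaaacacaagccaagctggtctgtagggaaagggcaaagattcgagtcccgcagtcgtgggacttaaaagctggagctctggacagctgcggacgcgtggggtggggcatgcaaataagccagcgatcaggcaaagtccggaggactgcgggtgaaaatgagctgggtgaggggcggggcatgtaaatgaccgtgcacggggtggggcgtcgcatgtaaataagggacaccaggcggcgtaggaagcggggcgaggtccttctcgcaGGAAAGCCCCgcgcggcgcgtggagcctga
Il21r: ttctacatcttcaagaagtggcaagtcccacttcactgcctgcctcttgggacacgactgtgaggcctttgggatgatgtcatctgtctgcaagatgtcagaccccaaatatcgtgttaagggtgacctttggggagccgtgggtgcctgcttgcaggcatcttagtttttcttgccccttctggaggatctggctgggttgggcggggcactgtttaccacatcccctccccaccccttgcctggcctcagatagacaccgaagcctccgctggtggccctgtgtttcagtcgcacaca
Il3ra: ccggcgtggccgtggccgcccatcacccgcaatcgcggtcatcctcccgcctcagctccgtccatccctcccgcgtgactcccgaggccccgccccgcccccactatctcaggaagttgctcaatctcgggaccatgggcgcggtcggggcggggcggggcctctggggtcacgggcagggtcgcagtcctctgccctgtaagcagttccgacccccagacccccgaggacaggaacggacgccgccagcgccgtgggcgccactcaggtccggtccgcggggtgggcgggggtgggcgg
Il6ra: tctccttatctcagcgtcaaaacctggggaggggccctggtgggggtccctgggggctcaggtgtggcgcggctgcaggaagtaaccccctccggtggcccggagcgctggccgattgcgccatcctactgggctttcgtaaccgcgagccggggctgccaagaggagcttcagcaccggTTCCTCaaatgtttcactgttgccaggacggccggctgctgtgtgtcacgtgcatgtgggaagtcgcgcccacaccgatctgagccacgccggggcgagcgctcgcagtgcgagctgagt
The motifs searched were TTCNNNGAA (the Stat dimer site), GAAANNGAAA (the interferon-stimulated response element), GAGGAA (the core bound by the myeloid factor PU.1) and NF-kB by its consensus. The capitals in Il4ra are an NF-kB match after the start site and those in Il6ra a GAGGAA match, on the reverse strand, before it, and the matches do not overlap. The windows shown for Il21r and Il3ra held 0 matches, which describes the starts used and not the sequence before the first base of each gene. Over all 32851 promoter windows, 8.30% held TTCNNNGAA, 3.44% GAAANNGAAA, 28.3% GAGGAA and 8.46% NF-kB. Of the 22 windows of the 19 genes of this family with an entry, 1 held TTCNNNGAA, 1 GAAANNGAAA, 9 GAGGAA and 3 NF-kB. A match describes letters and was not tested for binding.

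The other members were not called with EPO on the deposited scale, and their intervals differ in width. Of these, Il17ra (-0.38, adjusted p = 0.00591) and Il10ra (-0.39, adjusted p = 0.0281) were called lower with aligned medians, and Il4i1 (-0.52, adjusted p = 0.0407) was after quantile normalization. On the deposited scale the receptors without a call had narrow 95% intervals: Il15ra from -0.25 to 0.42, Csf2ra from -0.33 to 0.14, Il17ra from -0.43 to 0.08 and Il10ra from -0.45 to 0.08. Among ligands, Csf1 had a difference of 0.18 (-0.19 to 0.55), Il6 of 0.29 (-0.21 to 0.79) and Il12b, the p40 subunit shared by interleukin-12 and interleukin-23, of -0.25 (-0.80 to 0.30). For Il12b it was -0.45 with aligned medians, -0.58 after quantile normalization and -0.165 with limma-voom, without a call. Other scalings turned the sign for Csf1 (-0.026 with aligned medians and -0.072 after quantile normalization), Il15ra (-0.12 and -0.25 in the same order) and Il6 (-0.11 after quantile normalization). Il4i1, an oxidase of aromatic amino acids made by antigen-presenting cells, had a difference of -0.14 (-0.54 to 0.27). The remaining ligands were low, and an interval such as that of Il22, from -1.70 to 0.34, leaves room for a large fall.

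For 10 ligands a chain of the receptor is among the genes described here. These pairs were put together after the values were seen. With EPO, on the deposited scale, 0 of the 10 pairs had both genes called in the same direction. Of all genes, 22.8% were called higher and 28.3% lower. The ligands Csf2, Il3, Il4, Il10, Il13, Il25 and Il27 had at most 42 recovered counts in any mouse, and of these only Il27 was called. Wide intervals, such as -1.32 to 0.70 for Il3, leave room for changes in the others. The 0 therefore does not show that ligands and receptors changed apart, and Il4ra stands in more than 1 pair. Il27 rose and Il27ra fell. In 6 pairs only 1 gene was called: Il15 rose while Il15ra, the chain that presents it, differed by 0.08 (-0.25 to 0.42), and Csf1r rose while Csf1 differed by 0.18, with the signs of Il15ra and Csf1 turning with the scaling. The others were Il3ra and Il6ra, each called without its ligand, and Il4ra, called without Il4 or Il13. The difference between the 2 genes of a pair was not tested.

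Adding CTLA4-Ig to allogeneic cells asks what costimulation blockade alone changed. Of the 29 genes, 0 were called by limma, as were 0.0% of all genes, and limma-voom on recovered counts and the methods' t-test after adjustment called 0 members too. At an unadjusted p below 0.05 limma gave 2 members, Il10 and Il27, and 9.54% of all genes, and the methods' t-test gave 3 members, these 2 and Il17ra, and 10.4% of all genes. Il10 encodes the cytokine that quiets macrophages. Il10 had log2 levels of 4.70, 3.92, 4.06 and 3.91 in the naive mice, 4.94, 4.51, 4.66 and 4.58 in those given allogeneic cells alone, 4.39, 3.83, 3.70 and 3.74 in those with CTLA4-Ig and 2.99, 4.36, 3.81 and 2.36 in those with CTLA4-Ig/EPO. Every mouse with CTLA4-Ig lay below every mouse given allogeneic cells alone, by -0.76 on average (adjusted p = 0.523). For Il27 the difference was -0.82 (adjusted p = 0.25), from 5 to 11 counts in a mouse down to 3 to 5. The receptors had 95% intervals within -0.39 (Il3ra) and 0.46 (Il15ra).

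Allogeneic cells alone against naive mice asks how the transferred cells change the myeloid compartment. On the deposited scale 24 of the 29 genes were called, 4 higher and 20 lower, where 11.9% of all genes were called higher and 58.4% lower. The median difference was -1.22 over ligands and -0.83 over receptors, against -0.65 over all genes. Without naive mouse 1 the counts were 4 higher and 19 lower. This comparison turned on the scale. With limma-voom, which scales to total recovered counts, 10 members were higher and 5 lower, and 46.2% of all genes were higher and 18.7% lower. Aligning sample medians gave 6 higher and 10 lower (33.0% and 26.7% of all genes), and quantile normalization 8 and 8 (34.2% and 26.2%). The median of all genes moved from -0.65 to 0.08, 0.15 and 0.44 with aligned medians, quantile normalization and limma-voom.

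**Figure D3:**
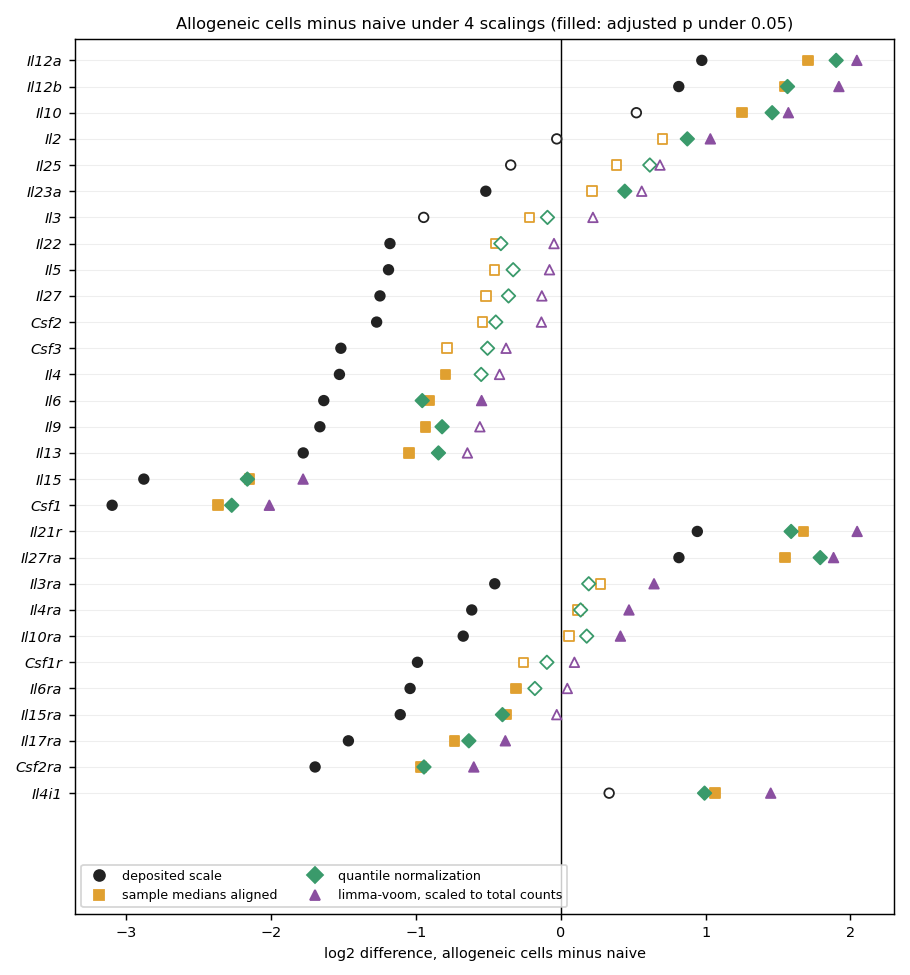
Log2 difference of each gene between mice given allogeneic cells alone and naive mice under 4 scalings (n = 4 mice a group), with filled symbols where the adjusted p is below 0.05. Il12a, Il12b, Il21r and Il27ra are called higher and Csf1, Il15, Il6, Csf2ra and Il17ra lower under all 4, and Il10ra, Il23a, Il3ra and Il4ra are called in opposite directions by different scalings.

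Under all 4 scalings 4 genes were called higher (Il12a, Il12b, Il21r and Il27ra) and 5 lower (Csf1, Il15, Il6, Csf2ra and Il17ra), and 4 genes were called in opposite directions by different scalings (Il10ra, Il23a, Il3ra and Il4ra). For 2 of these 4 the call on the deposited scale was lost in other fits too. Il3ra was lost in the fit of only the 2 groups (adjusted p = 0.0862) and in 5 of 8 fits that left out 1 mouse, naive mouse 2, 3 or 4 or mouse 1 or 3 given allogeneic cells alone (adjusted p from 0.0598 to 0.123). Il23a was lost with only the 2 groups (adjusted p = 0.0668) and with trended and robust moderation (adjusted p = 0.0734), and in 4 of 8 fits that left out 1 mouse. Csf1 had log2 levels of 9.56, 9.39, 9.28 and 9.33 in the naive mice, 6.56, 6.41, 5.89 and 6.30 in those given allogeneic cells alone, 6.02, 6.68, 6.16 and 5.83 in those with CTLA4-Ig and 6.33, 6.24, 6.53 and 6.30 in those with CTLA4-Ig/EPO. Csf1 encodes the growth factor of the macrophage lineage. Naive mice stood apart, with 373 to 530 recovered counts against 94 to 129 after allogeneic cells alone. The difference was -3.10 ± 0.17 on the deposited scale (limma adjusted p = 1.08e-09) and -2.01 with limma-voom.

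Il15 differed by -2.88 ± 0.13 (limma adjusted p = 1.55e-10), from 176 to 199 counts in naive mice to 51 to 58, and by -1.78 with limma-voom. Il6 had log2 levels of 7.74, 7.33, 7.74 and 7.23 in the naive mice, 6.26, 6.23, 5.01 and 5.99 in those given allogeneic cells alone, 5.75, 5.81, 5.45 and 5.35 in those with CTLA4-Ig and 5.99, 6.0, 5.67 and 5.85 in those with CTLA4-Ig/EPO. Il6 encodes an inflammatory cytokine of many cell types. The groups did not overlap in level, but their recovered counts, 110 to 128 in naive mice and 51 to 105 after allogeneic cells alone, lay close to each other, and mouse 3 of the latter group was the lowest. The difference was -1.64 ± 0.23 on the deposited scale (limma adjusted p = 2.18e-05) and -0.55 with limma-voom.

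Csf2ra had log2 levels of 9.19, 9.40, 9.60 and 9.39 in the naive mice, 7.50, 7.76, 7.63 and 7.90 in those given allogeneic cells alone, 7.85, 7.83, 7.84 and 8.0 in those with CTLA4-Ig and 7.65, 7.79, 7.79 and 7.91 in those with CTLA4-Ig/EPO. Csf2ra encodes the chain that binds GM-CSF, a growth factor of granulocytes and macrophages. On the deposited scale naive mice were higher than all others, by a difference of -1.70 ± 0.11 after allogeneic cells alone (limma adjusted p = 4.26e-09). That difference shrank to -0.97 with aligned medians and -0.60 with limma-voom. Il17ra had log2 levels of 11.10, 11.13, 10.73 and 10.80 in the naive mice, 9.38, 9.43, 9.59 and 9.49 in those given allogeneic cells alone, 9.57, 9.78, 9.66 and 9.63 in those with CTLA4-Ig and 9.33, 9.71, 9.28 and 9.61 in those with CTLA4-Ig/EPO. Il17ra encodes the receptor chain for interleukin-17A and interleukin-25. It was also highest in naive mice, with a difference of -1.47 ± 0.12 (limma adjusted p = 6.17e-08). The recovered counts overlapped, 1021 to 1765 in naive mice and 906 to 1222 after allogeneic cells alone, and with limma-voom the difference was -0.38.

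Il15ra had log2 levels of 6.54, 6.27, 6.02 and 6.33 in the naive mice, 5.50, 5.09, 5.22 and 4.91 in those given allogeneic cells alone, 5.31, 5.59, 5.17 and 5.15 in those with CTLA4-Ig and 5.23, 5.72, 5.31 and 5.29 in those with CTLA4-Ig/EPO. Il15ra was higher in the naive mice than in the other 12 on the deposited scale, with a difference of -1.11 ± 0.16 (limma adjusted p = 1.79e-05). In recovered counts, 39 to 61 in naive mice and 45 to 62 after allogeneic cells alone, the groups overlapped, and the difference with limma-voom was -0.03 (adjusted p = 0.895). Csf1r and Il6ra, lower by -0.99 and -1.04 on the deposited scale, differed by 0.09 and 0.04 with limma-voom, with adjusted p-values of 0.627 and 0.778. Il10ra, which encodes the chain that binds interleukin-10, went from -0.67 to 0.41.

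Il21r and Il27ra were higher after allogeneic cells alone by 0.94 ± 0.14 and 0.82 ± 0.16 (limma adjusted p = 2.12e-05 and 0.000422). Il12a and Il12b were higher by 0.97 ± 0.30 and 0.81 ± 0.26 (limma adjusted p = 0.00973 and 0.0112). With limma-voom the 4 differences were larger, 2.047 for Il21r, 1.884 for Il27ra, 2.045 for Il12a and 1.921 for Il12b. For Il12b, recovered counts were 21 to 40 in naive mice and 114 to 145 after allogeneic cells alone. Of these 4 genes, Il12a, Il21r and Il27ra were lower with EPO, a comparison that shares no mice with this one, and Il12b was not called there.

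Of the 18 ligands, 13 were low, with at most 42 recovered counts in any mouse: Csf2, Csf3, Il2, Il3, Il4, Il5, Il9, Il10, Il13, Il22, Il23a, Il25 and Il27. These include the type 2 cytokines Il4, Il5, Il9, Il13 and Il25, the growth factors Csf2 (GM-CSF), Csf3 (G-CSF) and Il3, and the T cell growth factor Il2. On the deposited scale 9 of them were called lower than in naive mice (Csf2, Csf3, Il13, Il22, Il23a, Il27, Il4, Il5 and Il9) and 0 higher, where 58.4% of all genes were lower and 11.9% higher. The call of Il22 was lost in 7 of 8 fits that left out 1 mouse, all but the one without mouse 1 of those given allogeneic cells alone (adjusted p from 0.0525 to 0.134), and without mouse 2 of that group its difference went from -1.18 to -0.78. Il23a was lost in 4 of 8, without naive mouse 1 or 3 or mouse 3 or 4 given allogeneic cells alone (adjusted p from 0.0747 to 0.113), and Csf3 without mouse 3 of either group (adjusted p = 0.0518 and 0.0553). With limma-voom 0 were called lower and 2 higher, Il10 and Il2, against 18.7% and 46.2% of all genes. Their recovered counts summed to 135, 156, 193 and 166 in the naive mice and to 210, 185, 170 and 192 after allogeneic cells alone, so the ranges overlapped. For Il5 the mean was 6.25 counts in both groups, while the deposited levels differed by -1.19 (limma adjusted p = 0.000595). Il10 had 10 to 14 counts in naive mice and 30 to 42 after allogeneic cells alone.

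**Figure D4:**
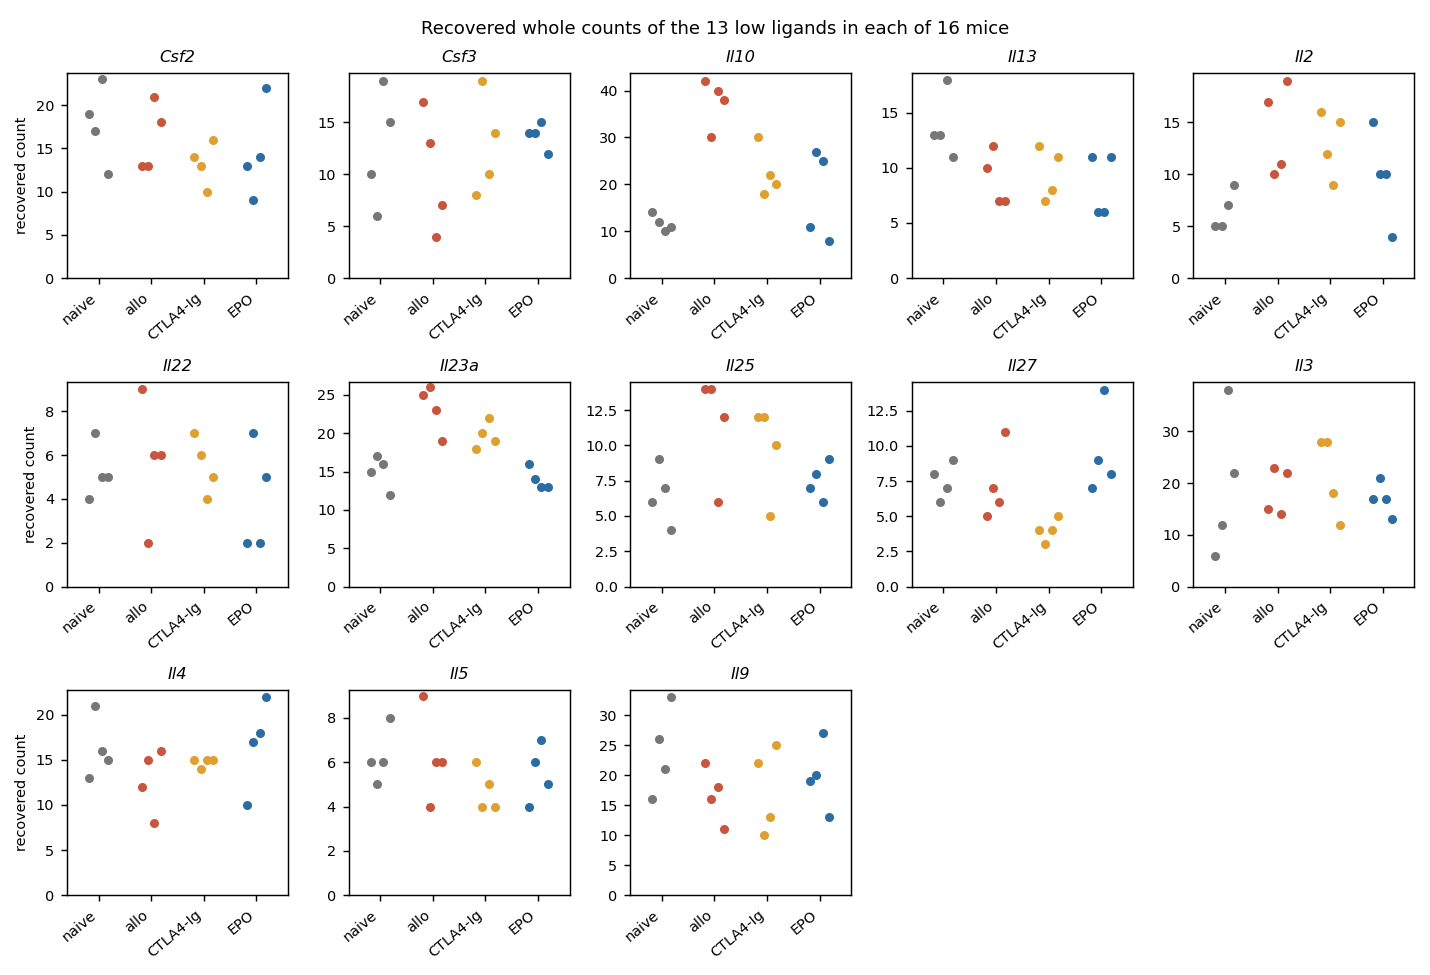
Recovered whole counts of the 13 ligands that stay at 42 counts or fewer, in each of the 16 mice, from 0 on each axis. Naive counts overlap those after allogeneic cells alone for most genes, such as Il5, Csf2 and Il22, and lie below them for Il10, Il2 and Il23a.

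Across all 4 groups, limma's F-test called 24 of the 29 genes, against 85.3% of all genes. The largest F statistics were those of Il15 (215), Csf1 (165) and Csf2ra (111). The 5 genes not called were Csf3, Il3, Il25, Il2 and Il4i1.

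The Jak-Stat genes that pass these signals on were represented by 10 of 18 listed genes, of which 2 were higher and 6 lower with EPO, with a median of -0.32. Socs2, an inhibitor that Stat5 induces, rose by 1.26 (limma adjusted p = 1.98e-05). Stat4, which relays interleukin-12, fell by 1.03 (limma adjusted p = 2.57e-06), and Jak3, the partner of the common gamma chain, fell by 0.76 (limma adjusted p = 0.000181). Socs1 fell by 0.54. With limma-voom 2 were called higher and 2 lower, and with aligned medians 1 higher and 8 lower. After allogeneic cells alone 1 was higher and 6 lower, a split that turned to 7 and 1 with limma-voom.

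Of 21 other cytokines, growth factors and receptors, 10 were measured, and 3 were higher and 5 lower with EPO, with a median of -0.35. Kitl (stem cell factor) rose by 2.64 (limma adjusted p = 2.43e-08). Ifng fell by 1.17, Flt3 by 0.85 and Ifngr1, a chain of the interferon-gamma receptor, by 0.67 (limma adjusted p = 0.000269, 2.02e-05 and 0.000101). With limma-voom 3 were called higher and 3 lower, and with aligned medians 1 higher and 5 lower. After allogeneic cells alone 2 were higher and 6 lower, and 6 and 1 with limma-voom.

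Markers of cell types moved in the same comparisons, and their part in the results above was not tested. Itgam, which encodes the CD11b used for selection, had mean levels of 11.42 in naive mice, 8.85 in mice given allogeneic cells, 9.22 once CTLA4-Ig was added and 9.56 with CTLA4-Ig/EPO. It was not called when CTLA4-Ig was added (limma adjusted p = 0.523) or when EPO was added (limma adjusted p = 0.0881). Of 14 T cell markers 5 were measured (Cd28, Ctla4, Icos, Cd40lg and Cd247), and all 5 were higher after allogeneic cells alone and lower with EPO under each of the 4 scalings. With EPO, Ctla4 fell by 2.04, Cd28 by 1.97, Cd40lg by 1.88 and Cd247 by 1.27. The summed T cell level (log2) was 8.96, 9.26, 9.49 and 9.18 in the naive mice, 10.49, 10.69, 10.35 and 10.38 in those given allogeneic cells alone, 10.37, 10.42, 10.31 and 10.40 in those with CTLA4-Ig and 9.13, 8.85, 8.53 and 8.66 in those with CTLA4-Ig/EPO. The naive and the EPO mice lay below the other 8, without overlap. The gene with the highest mean level was Cd247 in the naive and the EPO mice and Cd28 in the other 8. The 2 of 9 B cell markers measured, Ms4a1 (the more abundant) and Cxcr5, did the same. Their summed level (log2) ran from 9.95 to 10.18 in naive mice, from 11.50 to 11.73 with allogeneic cells alone, from 11.43 to 11.66 with CTLA4-Ig and from 10.45 to 10.99 with CTLA4-Ig/EPO. The EPO mice lay between the naive mice and the other 8. All 3 of 7 NK cell markers measured (most abundant Gzma) were lower with EPO, by a median of -0.63, and 1 of them with limma-voom. Against naive mice, 2 were lower after allogeneic cells alone on the deposited scale, and 3 were higher with limma-voom.

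Neutrophil genes (7 of 9 measured, most abundant S100a9) were all lower after allogeneic cells alone than in naive mice, by a median of -4.31, and 4 were higher with EPO, by a median of 0.92 over the list. The summed neutrophil level (log2) was 19.53, 18.30, 17.95 and 18.38 in the naive mice, 15.12, 13.71, 14.32 and 13.56 in those given allogeneic cells alone, 14.55, 14.45, 13.74 and 13.83 in those with CTLA4-Ig and 15.20, 16.40, 15.54 and 15.84 in those with CTLA4-Ig/EPO. Naive mouse 1 was the highest. The list took 27.1% to 49.2% of all counts in naive mice and 2.30% to 15.9% in the others, which bears on any scaling to total counts. Red pulp macrophage genes (5 of 9, most abundant Vcam1) were all higher with EPO, by a median of 1.67, and 3 of the 5 were higher after allogeneic cells alone, all 5 under the other scalings. The summed red pulp macrophage level (log2) was 12.09, 11.97, 11.93 and 12.33 in the naive mice, 12.60, 12.38, 12.40 and 12.66 in those given allogeneic cells alone, 12.23, 12.30, 12.36 and 12.21 in those with CTLA4-Ig and 13.93, 13.84, 14.30 and 14.01 in those with CTLA4-Ig/EPO. The EPO mice stood above all others. Granulocyte progenitor genes (3 of 4, most abundant Mpo) were all higher with EPO, led by Ctsg at 3.12, and 3 of the 4 eosinophil genes measured of 6 (highest in mean level Ccr3 with CTLA4-Ig and Prg2 in the other groups) were too, led by Prg2 at 3.92. After allogeneic cells alone all 3 granulocyte progenitor genes were lower than in naive mice, by a median of -2.91 and under each of the 4 scalings, and all 4 eosinophil genes were lower, by a median of -2.49, with 3 of them called by limma-voom.

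Of 8 myeloid markers 6 were measured (most abundant Tyrobp), and 4 were higher with EPO, led by Fcgr3 at 1.55, with a median of 0.81. All 6 were lower after allogeneic cells alone than in naive mice, by a median of -1.68 (Fcgr3 by -2.375 and Tyrobp by -1.87), and 4 were with limma-voom, 5 with aligned medians or quantile normalization. Of 7 basophil and mast cell markers 5 were measured (highest in mean level Hdc in naive mice and after allogeneic cells alone, and Cpa3 with CTLA4-Ig and with CTLA4-Ig/EPO), and 3 were higher with EPO, by a median of 0.64 over the list. Hdc was not called with EPO. The 5 genes were all lower after allogeneic cells alone, by a median of -1.42 (Hdc by -4.30, limma adjusted p = 4.54e-10), and 3 with aligned medians or quantile normalization and 2 with limma-voom. Dendritic cell markers (4 of 7, most abundant Itgax) had 1 higher and 1 lower with EPO, Xcr1 at 0.69 and Itgax at -0.93, and the call of Xcr1 was lost with aligned medians and with quantile normalization. In mice given allogeneic cells alone 2 were higher than in naive mice and 1 lower, and 3 and 0 with limma-voom. Itgax encodes CD11c, and the sources used here differ on whether cells with CD11c were left out of the CD11b+ cells. With CTLA4-Ig added to allogeneic cells, 0 genes of any of these lists were called. In each list 0 genes were at the lowest count of 1 in any mouse.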

How the data were processed

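NanoString nCounter counts of myeloid genes were measured in CD11b+ spleen cells of 16 mice. The log2 values deposited for 734 genes had been normalized by the authors in limma from raw counts, and no gene was filtered out. Whole counts were recovered as 2 to the power of each log2 value divided by the factor of its mouse, and 100% of values were whole to within 0.001 (largest deviation 0.00024). The lowest count, 1, made up 0.843% of values and may stand for 0. Mice of a group differed by more than sampling noise (chi-square per degree of freedom at least 5.24). The 4 group means were fitted to all 16 mice with limma 3.58.1 (R 4.3.3), with 3 contrasts, a moderated F-test, two-sided p-values and Benjamini-Hochberg adjustment over all genes. The fit was tested on simulated data. Mice numbered alike with CTLA4-Ig and with CTLA4-Ig/EPO deviated together weakly (correlation 0.143 to 0.183 over genes in each pair). Mice numbered unlike reached from -0.287 to 0.192, so the values do not establish that the numbers mark pairs. The numbers were treated as pairs for the replicate block, on the values alone. Alternatives were a 1.5-fold minimum, unadjusted p-values, only the 2 groups compared, moderation with a trend and robust, aligned medians, quantile normalization, limma-voom on recovered counts, leaving out the lowest 25% of genes, the replicate block, the methods' t-test and leaving out each mouse.

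The members and gene lists were chosen with earlier results of these data known. Each member is named, with levels in every mouse for those called with EPO and for the 5 others with the largest F. Levels of Il10 in every mouse were added after its values were seen. All 29 symbols matched the RefSeq table of GRCm38.p6, and 19 had a promoter entry. Without an entry were Csf1r, Csf3, Il10, Il10ra, Il15, Il17ra, Il23a, Il25, Il27 and Il27ra. Python 3.11.15 was used with pandas 2.3.3, numpy 2.4.6, matplotlib 3.10.9 and scipy 1.17.1.

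1 of the cell type marker lists is not reported here.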

Additional observations from a re-analysis of the deposited data

Results flagged for a closer look

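Among the 116 sets of 4 mice (29 genes in 4 groups), 6 held a mouse whose gap to the next, as a share of the whole range, passed Dixon's critical value at 95%, about as many as chance gives at 1 in 20. Il12a in CTLA4-Ig mouse 2 was low, at 4.66 against 5.15 to 5.20 in the others (share 0.91), and Il23a in the same mouse was high, at 3.98 against 3.65 to 3.70 (share 0.856). Csf2 in CTLA4-Ig mouse 3 was low, at 2.56 against 3.29 to 3.42 (share 0.846), with 10 counts. Csf2ra in CTLA4-Ig mouse 4 was high, at 8.0 against 7.83 to 7.85 (share 0.862). Il15ra in CTLA4-Ig/EPO mouse 2 was high, at 5.72 against 5.23 to 5.31 (share 0.831). Il25 in naive mouse 4 was low, at 2.45 against 3.48 to 3.54 (share 0.936), with 4 counts.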

How the results depend on the processing

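The EPO comparison kept its counts of members within 1.5 times except with aligned medians, where 3 were higher, and without CTLA4-Ig mouse 4 or CTLA4-Ig/EPO mouse 4, where 3 were lower. Leaving out 1 mouse gave 7 to 10 members, 4 to 5 higher and 3 to 6 lower. The replicate block called 10 members and 400 genes with EPO and changed no EPO call of a member. The numbers do not pair naive mice with the group given allogeneic cells alone (correlation -0.06 to 0.17), and there the block gave 23 members, with Il22 lost. With CTLA4-Ig added, the member count went from 0 to 2 at unadjusted p (0 higher, 2 lower, 70 genes in all) and 3 by the methods' t-test unadjusted (1 higher, 2 lower, 76 genes), and leaving out 1 mouse gave 0 members and 0 to 1 genes. For allogeneic cells minus naive, members called were 15 with limma-voom (10 higher, 5 lower) and 15 with the lowest 25% of genes left out (11 lower), where 13 members were not tested; 10 were lower with aligned medians, and 8 were higher and 8 lower with quantile normalization. Leaving out 1 mouse gave 20 to 23. The F-test gave 16 members with limma-voom, 15 with the lowest 25% left out and 23 to 25 without 1 mouse.

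Signs turned in allogeneic cells minus naive for these genes, each called on the deposited scale or under the scaling named. With limma-voom the differences became 0.094 for Csf1r, 0.41 for Il10ra, 1.03 for Il2, 0.56 for Il23a, 0.64 for Il3ra, 0.47 for Il4ra and 0.045 for Il6ra. With quantile normalization they became 0.18 for Il10ra, 0.87 for Il2, 0.44 for Il23a, 0.19 for Il3ra and 0.14 for Il4ra, and with aligned medians 0.058, 0.21, 0.28 and 0.12 for Il10ra, Il23a, Il3ra and Il4ra. The signs of Il25 and Il3 turned too, with no call on either scale. In the other comparisons, signs turned under at least 1 scaling only for members that no scaling called: with EPO for Csf1, Csf2, Csf2ra, Csf3, Il15ra, Il4, Il5, Il6 and Il9, and with CTLA4-Ig added for Csf1r, Il3ra, Il6ra and Il9. The cause was not tested. Few counts limit the low ligands: a difference of 1 count moves them most.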
